A study of Homo sapiens with 6 samples.

Results

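The set described here is made of 8 genes that cells switch on quickly after a stimulus or that drive such genes: the orphan nuclear receptors NR4A1, NR4A2 and NR4A3, the immediate early response genes IER2, IER3 and IER5, the transcription factor gene SRF, and CSRNP1. Members were taken by name, and every probe set annotated to 1 gene symbol of the set was used. That gave 15 probe sets for the 8 genes, out of 41091 single-gene probe sets for 19775 genes on the arrays (Affymetrix HG-U133 Plus 2.0). The samples were SW480 cells, an established human colorectal cancer line. In 1 group of 3 arrays the cells had been transfected and were labelled as overexpressing CPEB3, an RNA-binding protein that acts on cytoplasmic polyadenylation elements of mRNAs. In the other group, also of 3 arrays, they were labelled as negative control (NC). Both groups shared the line, the serum-containing medium and the antibiotics in it. The labels do not say which vector was used, whether the transfection was stable, whether a line was 1 clone, or how long after feeding or transfection the RNA was taken. They call the replicates biological and name no separate cultures, so the p-values reflect the spread among these 6 arrays alone, which may be technical.

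The NR4A proteins are nuclear receptors that act without a known hormone ligand. They bind DNA as monomers at a short element called the NBRE, and their output follows how much of the protein is made. Growth factors, calcium and cAMP induce their mRNAs within minutes. SRF is the factor that binds the CArG box of serum response elements, where it works with ETS-type ternary complex factors at immediate early genes and with myocardin-related factors at cytoskeletal genes. IER2 and IER5 are related regulators, IER3 (also known as IEX-1) is a stress-induced regulator of cell survival, and CSRNP1 (AXUD1) is a nuclear protein first described as induced by axin. In colorectal cells such genes respond to serum and growth factors.

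Median log2 intensities of the 6 arrays ran from 3.89 to 3.93, a likeness that RMA normalization itself brings about. Hybridization spike-in probe sets had mean log2 values of 9.48 to 9.64 in the arrays labelled CPEB3. In those labelled NC the means were 9.73 to 9.80. Correlations over all probe sets, which are not independent replicates, were 0.997 to 0.998 within a group and 0.991 to 0.992 between groups. CPEB3 itself was not higher in the arrays labelled as overexpressing it. It was lower in the arrays labelled CPEB3 at 3 of its 4 probe sets (log2 differences -1.44, -0.35 and -0.25), with limma Benjamini-Hochberg adjusted p-values of 7.8e-05, 0.00877 and 0.0473, and read 5.37 against 5.32 at the brightest (adjusted p = 0.695). The 3 that were lower are dim, with group means from 1.74 to 3.75, all under the array medians, and whether they were above background was not tested. The 1 probe set above the median did not differ past the threshold. The groups are therefore named by their labels throughout, and each direction rests on those labels. Markers fitted the labelled cell type in part. Of 16 colorectal epithelial markers, 10 lay above the median gene (log2 4.99), with EPCAM at 11.13 and 11.09 in the arrays labelled CPEB3 and NC, while CDX2 (4.85 and 4.83) lay below it. Of 11 leukocyte markers 1 was above the median gene, and of 13 fibroblast and endothelial markers 1. The epithelial markers had 2 genes lower and 2 higher, near the 12.5% lower and 10.9% higher of all genes. Their summed linear intensity was 8999 to 9302 in the arrays labelled CPEB3 against 8223 to 8409 in those labelled NC. The sums of the other lists were also slightly higher in the arrays labelled CPEB3 (172 to 184 against 156 to 165 for leukocyte markers, 224 to 233 against 205 to 219 for the stromal ones). The part of these shifts in the results was not tested.

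Of the 8 genes, 5 fell in the arrays labelled CPEB3: CSRNP1, IER2, NR4A2, IER3 and IER5. NR4A1, NR4A3 and SRF did not pass the test. Each gene was represented by its brightest single-gene probe set, a negative log2 difference means a lower value in the arrays labelled CPEB3, and limma p-values were adjusted by Benjamini-Hochberg across the 19775 genes, with calls made under 0.05. Over all genes, 12.5% were called lower and 10.9% higher (2470 and 2146 genes, or 1038 and 7766 when arrays were centred on 18 hybridization spike-in probe sets, which shifts every difference by 0.18). No member was called higher (0 by limma's adjusted p, and 0 at an unadjusted p under 0.05). The median difference of the 8 was -0.48, beside 0.02 for all genes. The 3 values of each group lay apart, with the lower ones in the arrays labelled CPEB3, for 6 of the 8, beside 19.1% of all genes. A called fall of at least 1.5-fold was seen in 3 members (CSRNP1, IER2 and NR4A2), beside 2.75% of all genes, with IER3 just under it at 1.498-fold. By single probe sets, each tested among 54613, 7 of the 15 were called lower and 0 higher, beside 7.86% lower and 6.59% higher of all probe sets. Groups lay apart downwards at 8 of the 15, beside 14.9% of all probe sets.

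**Figure D1:**
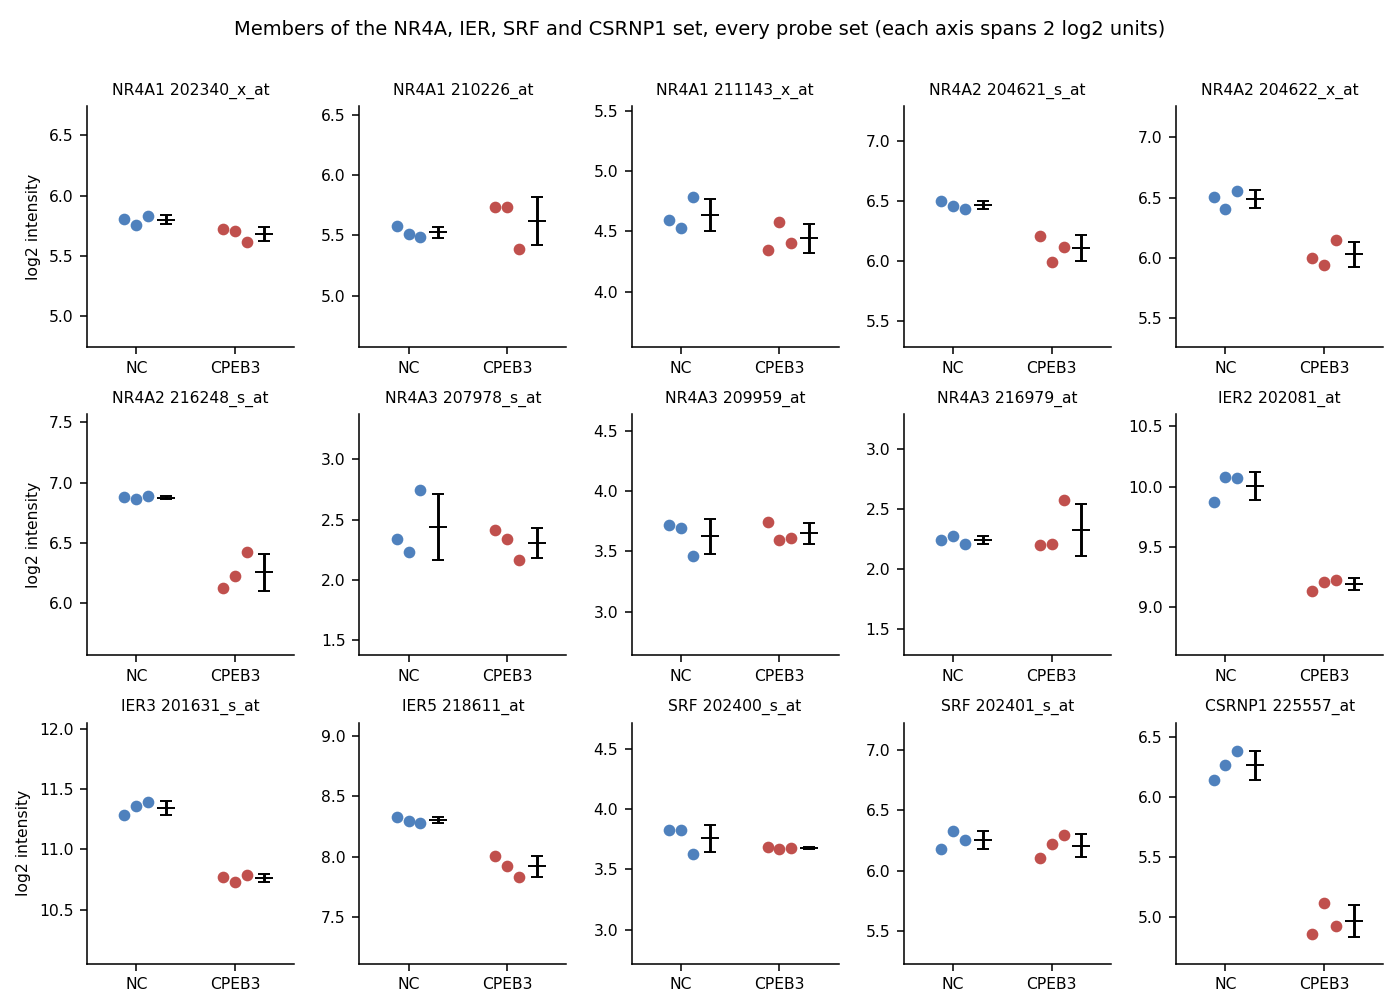
Log2 intensity of each of the 15 member probe sets in the 3 arrays labelled NC (blue) and the 3 labelled CPEB3 (red), points being single arrays and bars the mean ± SD. Each vertical axis spans the same 2 log2 units, so that the wide gap of CSRNP1 (4.97 against 6.26) can be set beside the overlapping points of NR4A3 and SRF.

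CSRNP1 showed the largest difference of the set. In the arrays labelled CPEB3 its log2 intensity was 4.86, 5.12 and 4.93, and in those labelled NC it was 6.14, 6.26 and 6.39. The highest array of the first group therefore lay about 1 log2 unit under the lowest of the second. The means were 4.97 ± 0.13 and 6.26 ± 0.12 (SD, n = 3 each), which differ by -1.29 with a standard error (SE) of 0.09, a 2.45-fold fall (limma, Benjamini-Hochberg adjusted p = 1.37e-05). It was the gene with the 109th largest fall among the 19775. CSRNP1 has 1 probe set on the array, 225557_at, so no second probe set can be set beside it. Its level in the arrays labelled CPEB3 came to the median gene (log2 4.99), and RMA compresses differences of dim probe sets.

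The 3 IER genes were bright in both groups and all fell. IER2 read 9.13, 9.21 and 9.23 in the arrays labelled CPEB3 and 9.87, 10.08 and 10.07 in those labelled NC. The arrays of the first group stayed within 0.1 of each other and well below all of the second. The difference was -0.82 (SE 0.07), or 1.76-fold (limma, Benjamini-Hochberg adjusted p = 7e-05). IER3 read 10.77, 10.73 and 10.79 against 11.28, 11.36 and 11.39. The arrays of each group lay close together (SD 0.03 and 0.06, n = 3 each), and the groups did not overlap. The difference was -0.58 (SE 0.06) (limma, Benjamini-Hochberg adjusted p = 1.53e-04). IER5, which acts on heat shock factor HSF1 and phosphatase PP2A, read 8.01, 7.92 and 7.83 against 8.33, 8.30 and 8.28. Its groups were apart too, by less, and the difference was -0.38 (SE 0.06), or 1.30-fold (limma, Benjamini-Hochberg adjusted p = 0.00253). IER5 lost its call with spike-in centring, with -0.20 and an adjusted p of 0.0818.

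Within the IER genes the estimated falls were unequal in size, but the test used here cannot decide whether they differ. With the difference between 2 genes taken within each array, the change of IER2 minus that of IER3 was -0.23 on the log2 scale, that of IER2 minus IER5 was -0.44, and that of IER3 minus IER5 was -0.20. In each of these pairs the 3 within-array differences of one group lay apart from those of the other. For IER3 and IER5 the gap was very narrow. The exact permutation test (two-sided) gave p = 0.1 for each, which is the smallest that 3 arrays against 3 can give, and 0.12 after Benjamini-Hochberg adjustment over 6 pairs of members. This test therefore cannot go below 0.05 here, and no other test of these inequalities was run. With quantile normalization once more the same permutation test gave p = 0.2 for IER3 against IER5.

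**Figure D2:**
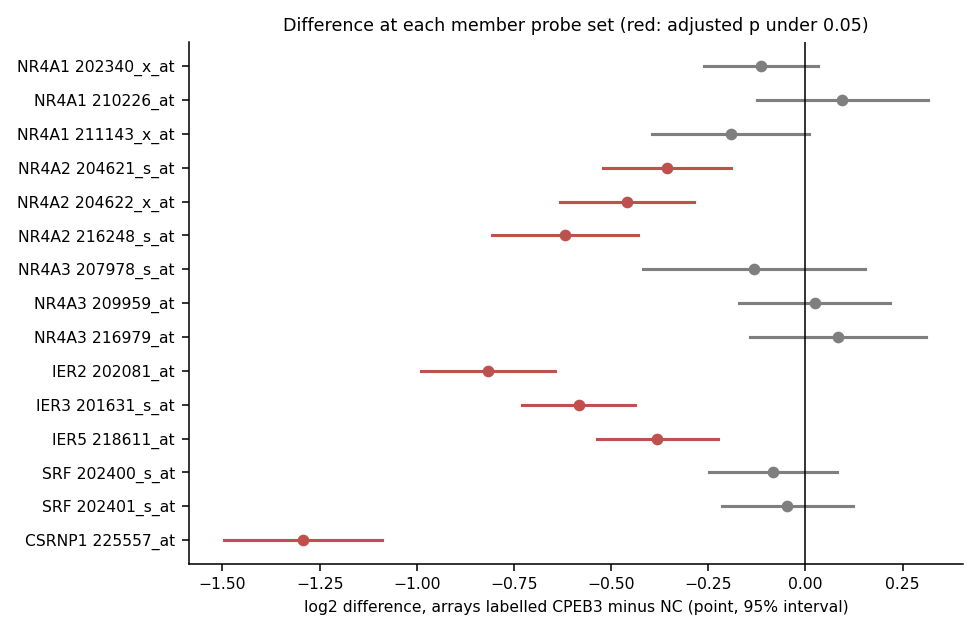
Log2 difference (arrays labelled CPEB3 minus NC) at each of the 15 member probe sets with its 95% interval from limma, in red where the adjusted p over all probe sets was under 0.05. All 3 NR4A2 probe sets, the single probe sets of IER2, IER3 and IER5, and CSRNP1 lie left of 0, while every NR4A1, NR4A3 and SRF interval includes 0.

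Among the NR4A receptors only NR4A2 passed the test. NR4A2 (Nurr1) fell at all 3 of its probe sets. At the brightest, 216248_s_at, it read 6.12, 6.22 and 6.42 in the arrays labelled CPEB3 and 6.88, 6.86 and 6.89 in those labelled NC. The control arrays were nearly identical (SD 0.01, n = 3), and the spread lay in the arrays labelled CPEB3 (SD 0.15, n = 3). The difference was -0.62 (SE 0.08), or 1.54-fold (limma, Benjamini-Hochberg adjusted p = 6.2e-04 over genes). At 204622_x_at NR4A2 read 5.94 to 6.14 against 6.41 to 6.55, a difference of -0.46, and at 204621_s_at it read 6.21, 5.99 and 6.12 against 6.50, 6.46 and 6.43, a difference of -0.36. Both passed over all probe sets (limma, Benjamini-Hochberg adjusted p = 0.00365 and 0.0108), the last losing its call with spike-in centring (-0.18, adjusted p = 0.129). All 3 carry suffixes for probe sets that can match more than 1 transcript.

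NR4A1 (Nur77) did not pass at any of 3 probe sets, and these did not share a direction. The brightest, 202340_x_at, read 5.73, 5.71 and 5.62 in the arrays labelled CPEB3 and 5.81, 5.76 and 5.83 in those labelled NC. The groups did not overlap, but the gap was narrow. The difference was -0.11, with 95% bounds of -0.25 and 0.02 (adjusted p = 0.207 over genes, limma with Benjamini-Hochberg). The fall of NR4A2 at its own brightest probe set (-0.62) lay outside these bounds. At 210226_at the values were 5.74, 5.74 and 5.39 against 5.57, 5.51 and 5.48, with 2 arrays labelled CPEB3 above and 1 below all controls. At 211143_x_at they were 4.34 to 4.58 against 4.53 to 4.78, with overlap. The differences there were 0.09 and -0.19 (limma, Benjamini-Hochberg adjusted p = 0.592 and 0.201). At 211143_x_at the 95% bounds were -0.40 and 0.01, which include the smallest NR4A2 fall (-0.36 at 204621_s_at). With spike-in centring the difference at 202340_x_at turned to 0.065.

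NR4A3 (NOR1) was dim. Its 3 probe sets lay below the array median in all 6 arrays, from 2.17 to 3.75. The brightest, 209959_at, read 3.75, 3.59 and 3.61 in the arrays labelled CPEB3 and 3.72, 3.69 and 3.46 in those labelled NC. These values overlapped, with a difference of 0.02 (95% interval -0.16 to 0.21) and a limma Benjamini-Hochberg adjusted p of 0.872. The other 2 had differences of -0.13 (207978_s_at) and 0.08 (216979_at), and neither passed. At this brightness no detection call was used, so whether NR4A3 was above background was not tested, and a change of a low transcript could be missed. Taken within arrays, the change of NR4A1 minus that of NR4A2 was 0.50, and that of NR4A2 minus NR4A3 was -0.64 (exact permutation test, two-sided, p = 0.1 for each, the smallest possible, and 0.12 adjusted over the 6 pairs). NR4A1 and NR4A3 differed in change by -0.14 (exact permutation p = 0.3).

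SRF, whose product drives many immediate early promoters, did not pass at either probe set. At 202401_s_at it read 6.10, 6.22 and 6.29 in the arrays labelled CPEB3 and 6.18, 6.33 and 6.25 in those labelled NC. The groups overlapped, and the difference was -0.05, with 95% bounds of -0.21 and 0.11 (adjusted p = 0.692, limma with Benjamini-Hochberg). The sign turned with spike-in centring (0.13), with quantile normalization once more (0.0038) and without CPEB3 replicate 1 (0.0043). The dimmer 202400_s_at, below the array median, read 3.68, 3.67 and 3.68 against 3.82, 3.82 and 3.63. The SRF protein and its phosphorylation were not measured by these arrays.

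The DNA before the start sites of the members was examined because SRF, ternary complex factors and CREB are the factors textbooks place at these promoters. RefSeq windows (GRCh38.p14) were found for 6 of the 8 genes, 9 windows in all, as NR4A1, SRF and CSRNP1 each have an outer (upstream) and an inner start site. NR4A2 and IER3, which both fell, had no window and were not examined. The 250 bases before each start were searched on both strands for 4 motifs, with no mismatch allowed. These were the CArG box CCWWWWWWGG (W being A or T), the CRE half-site TGACG, the ETS core CCGGAA and the NBRE AAAGGTCA. No match of 1 motif overlapped one of another. Each sequence below runs 5′ to 3′ on the gene's strand and ends at the base before the start site, with the matches in capitals. SRF and NR4A3 are shown as members that did not pass and IER2 and IER5 as members that fell. They lie at chr6:43171019-43171268 (SRF), chr9:99821635-99821884 (NR4A3), chr19:13150161-13150410 (IER2) and chr1:181088450-181088699 (IER5), all on the plus strand.
SRF: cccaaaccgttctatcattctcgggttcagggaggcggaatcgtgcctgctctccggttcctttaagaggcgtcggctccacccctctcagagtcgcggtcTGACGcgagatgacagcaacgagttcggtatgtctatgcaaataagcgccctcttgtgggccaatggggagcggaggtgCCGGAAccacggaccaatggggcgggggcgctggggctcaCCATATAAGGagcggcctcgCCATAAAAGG
NR4A3: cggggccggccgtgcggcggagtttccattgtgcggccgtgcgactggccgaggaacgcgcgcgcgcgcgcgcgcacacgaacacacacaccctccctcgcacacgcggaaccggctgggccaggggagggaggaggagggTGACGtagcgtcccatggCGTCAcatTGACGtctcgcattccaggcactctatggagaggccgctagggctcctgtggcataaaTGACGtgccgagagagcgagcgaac
IER2: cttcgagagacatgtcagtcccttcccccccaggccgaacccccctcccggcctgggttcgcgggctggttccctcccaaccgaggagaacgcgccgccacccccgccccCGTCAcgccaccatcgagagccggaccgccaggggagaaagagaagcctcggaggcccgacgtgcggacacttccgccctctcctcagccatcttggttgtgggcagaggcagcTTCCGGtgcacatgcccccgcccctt
IER5: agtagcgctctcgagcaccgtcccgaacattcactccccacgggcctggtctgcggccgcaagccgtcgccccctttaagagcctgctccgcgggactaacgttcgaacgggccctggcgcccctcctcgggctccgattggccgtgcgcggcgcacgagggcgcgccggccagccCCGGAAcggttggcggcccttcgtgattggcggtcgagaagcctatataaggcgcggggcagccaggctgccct

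Exact CArG boxes were matched in the outer SRF window alone among the 9, at -30 to -21 and -10 to -1 from the start site. Of 35116 windows of the same length in the RefSeq table, 1.16% hold one. CArG-like sites with a mismatch were not searched, so the other windows may hold such sites. That window also held a CRE half-site at -149 and an ETS core at -70. NR4A3 held 4 CRE half-sites, starting at -109, -91, -83 and -25, IER2 held 1 at -140 and the inner CSRNP1 window 2 at -72 and -41. A CRE half-site is common, in 21.2% of all windows and in 4 of these 9. The ETS core was at -26 in IER2, at -74 in IER5 and at -17 in the outer NR4A1 window, so that 4 of the 9 windows held it, beside 14.5% of all windows. The NBRE was in 0 of the 9 and in 1.05% of all. Among the members with a window, those that fell and those that did not pass thus both held CRE half-sites and ETS cores. This leaves out NR4A2 and IER3. A match describes letters in a short window, and binding was not measured.

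**Figure D3:**
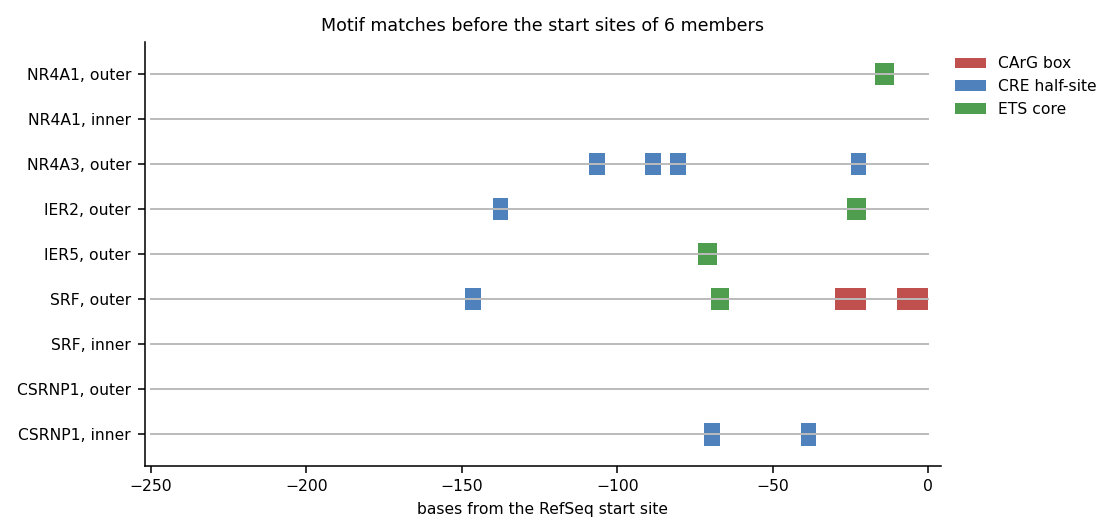
Positions of motif matches in the 250 bases before each RefSeq start site of 6 members (horizontal axis: bases from the start site at 0, 1 line per window). The 2 CArG boxes sit next to the start of the outer SRF window, NR4A3 holds 4 CRE half-sites, and the inner NR4A1 and SRF windows and the outer CSRNP1 window hold no match.

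Genes that work with or beside the members were taken from 8 lists. Of 8 measured immediate early genes that SRF is known to drive, 7 fell and 0 rose, with a median difference of -0.97 beside 0.02 for all genes. Over all genes 12.5% were called lower and 10.9% higher. EGR3 (-2.53), EGR1 (-2.25), FOS (-1.51) and ARC (-1.08) were the largest, and EGR4 (0.03) did not pass. EGR3 (3.49) and FOS (3.63) lay below the array median in the arrays labelled CPEB3, so the size of their differences rests on values near the dim end of the scale. With genes at or below the median level left out, 4 of this list were called lower. Further immediate early genes fell in 22 of 27 and rose in 0, with a median of -0.95, or in 13 when probe sets that can match several transcripts were left out, which also leaves fewer genes measured. KLF4 (-1.99), ATF3 (-1.95), MAFF (-1.68) and PPP1R15A (-1.52) led this list. Cytoskeletal SRF targets, the genes that myocardin-related factors serve, had 2 of 20 lower and 3 higher with a median of 0.05. Both counts are near the shares of all genes, so they show nothing of this list beyond the background. CCN2 (-1.69) and CCN1 (-0.48), secreted matricellular proteins, were the 2 that fell, MYL9 (0.29) and FHL2 (0.26) were among those that rose, and ACTB (-0.04), TAGLN (0.17) and VCL (0.08) did not pass. The count of those that rose was 0 without CPEB3 replicate 1, 0 without CPEB3 replicate 2 and 10 with spike-in centring. It was also 0 at a threshold of 0.01 and without multi-transcript probe sets, and 1 with the mean or the most variable of a gene's probe sets, and the count that fell was 1 without dim genes. Among 6 SRF cofactors the ternary complex factor ELK3 fell by 0.71 and the other 5 did not pass: ELK1 (0.05), ELK4 (-0.08), MRTFA (-0.12), MRTFB (0.01) and MYOCD (-0.03), the last dim.

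**Figure D4:**
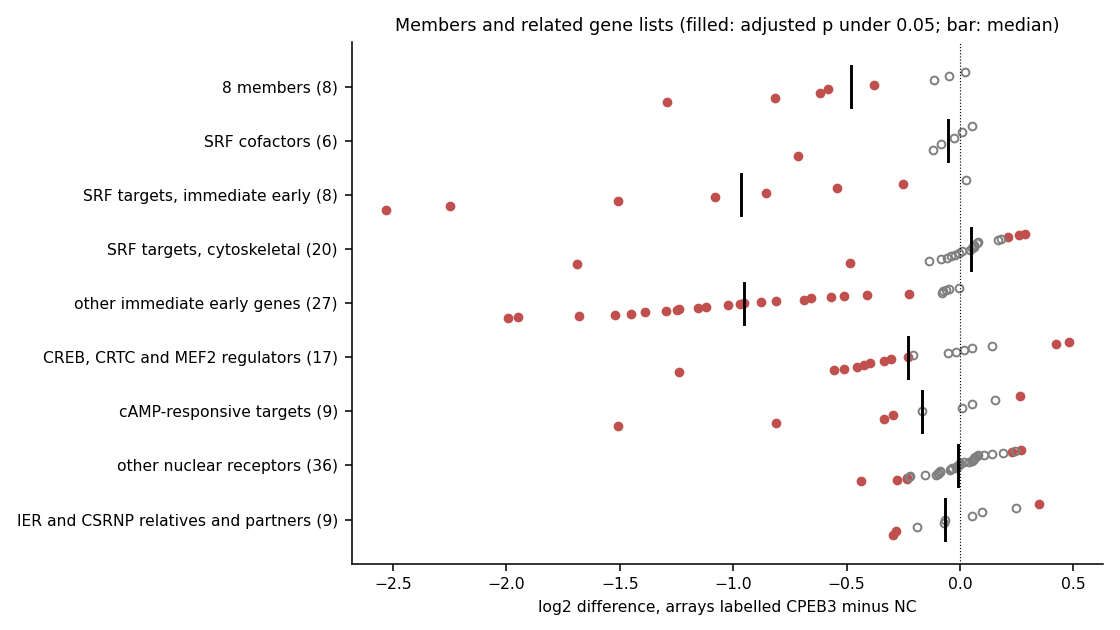
Log2 difference (arrays labelled CPEB3 minus NC) of every measured gene in the member set and 8 related lists, with the number of genes in brackets, filled where the limma adjusted p was under 0.05, and a bar at each median. The immediate early lists lie left of 0 (medians -0.97 and -0.95), while cytoskeletal SRF targets and other nuclear receptors gather around 0.

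Regulators that act on NR4A promoters through CREB, its CRTC coactivators or MEF2 fell in 9 of 17 and rose in 2, with a median of -0.23. Over all genes 12.5% were called lower and 10.9% higher, so the 2 that rose are near the background. HDAC9, a class II histone deacetylase that represses MEF2, fell by 1.24, MEF2A by 0.55, the acetyltransferase EP300 by 0.51 and CREB1 by 0.39, whereas the kinase SIK2 rose by 0.48 and MEF2C by 0.42. The count that fell was 5 with spike-in centring and 4 with the mean of a gene's probe sets, which left 1 that rose. Of 9 cAMP-responsive targets 4 fell and 1 rose (median -0.17), or 2 and 2 both with spike-in centring and without multi-transcript probe sets. The 1 that rose is also near the 10.9% of all genes called higher. FOS and DUSP1 (-0.81), which are also in the immediate early lists, were the largest. SIK1 (-0.33), which is also counted among the CREB, CRTC and MEF2 regulators, and the phosphodiesterase PDE4B (-0.30) followed. Other nuclear receptors fell in 4 of 36 and rose in 2 (median -0.01). These counts are near or under the 12.5% lower and 10.9% higher of all genes, so they show nothing of this list beyond the background. Its called genes with the largest differences were NR3C1, the glucocorticoid receptor, at -0.44, NR1D2 at -0.28, ESRRA at 0.27 and RARA at -0.23. Their counts were 2 lower without CPEB3 replicate 2, 2 lower without NC replicate 3, 1 higher without CPEB3 replicate 2, and 1 lower and 10 higher with spike-in centring. They were 1 lower and 0 higher at a threshold of 0.01, 1 and 1 without multi-transcript probe sets, and 3 and 1 with the mean of probe sets. RXRA (-0.15) and RXRB (-0.02), which pair with NR4A1 and NR4A2, did not pass.

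Among relatives and partners of IER and CSRNP1, IER5L rose by 0.35 (7.08 to 7.43), opposite in sign to IER5. CSRNP2 (-0.30) and PPP2R2C, a regulatory subunit of PP2A (-0.28), fell, and HSF1 (-0.07), IER3IP1 (0.05), PPP2R2A (-0.19) and CSRNP3 (0.10, dim) were among the 6 of 9 that did not pass (median -0.07). Over all genes 12.5% were called lower and 10.9% higher. The fallen count of 2 was 1 without CPEB3 replicate 1 and without CPEB3 replicate 3, and 0 without CPEB3 replicate 2, NC replicate 2 or NC replicate 3. The rising count of 1 became 2 without NC replicate 3, and with spike-in centring these counts were 0 and 2. With each gene's probe sets averaged both counts were 0, so that the call of IER5L was lost too. The fallen count was 0 at a threshold of 0.01 and 1 with quantile normalization once more, with the replicate block and without multi-transcript probe sets, the last leaving 2 that rose.

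Genes with the most similar profile were sought for each called member among 9880 genes above the median level, as the smallest root mean square difference over the 6 arrays after the NC mean was subtracted. This is a description over 6 arrays of 2 groups, and it mostly finds genes with a difference of like size. CSRNP1 was closest to the noncoding RNA GIHCG (difference -1.31, distance 0.05) and to IRF9 (-1.23, distance 0.07), the DNA-binding subunit of the interferon-activated factor ISGF3. IER2 was closest to SVBP (-0.81) and WHAMM (-0.80), and IER3 to the proteasome activator subunit PSME1 (-0.59) and the transporter SLCO4A1 (-0.59). NR4A2 was closest to ZNF326 (-0.60) and the Hedgehog receptor PTCH1 (-0.60), and IER5 to TGFBR2 (-0.41) and OGA (-0.36). Distances for these 8 genes were 0.02 to 0.04 on the log2 scale.

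**Figure D5:**
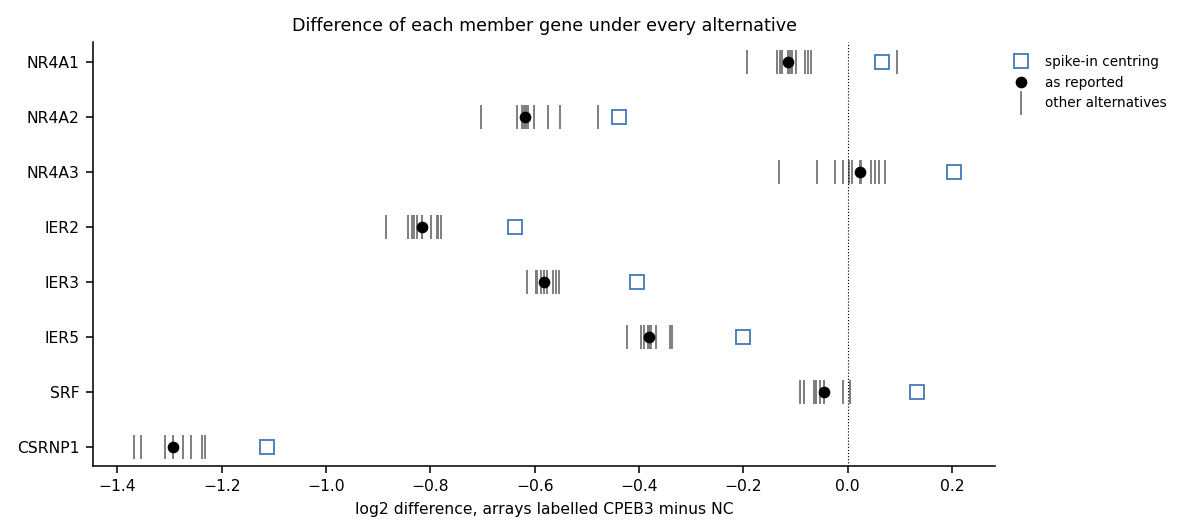
Log2 difference of each member gene as reported (black) and under every alternative that gave a value (grey ticks, with spike-in centring as blue squares). CSRNP1, IER2, NR4A2, IER3 and IER5 stay below 0 throughout, while NR4A1, NR4A3 and SRF have values on both sides of 0.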

How the data were processed

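Total RNA of 6 SW480 samples was measured on 1-colour Affymetrix HG-U133 Plus 2.0 arrays. The deposited values are linear normalized intensities made with RMA by the authors, per the submitters' processing notes, with version and probe set definition not given in the sources used here. Log2 was taken before any test. RMA brings arrays to a like distribution, so a change of total RNA is not measured. Of 54675 probe sets, 62 controls, 1801 with several symbols and 11721 without a symbol were not used for genes. Genes were fitted with limma 3.58.1 in R 4.3.3 (group as the only term, two-sided), adjusted over 19775 genes or 54613 probe sets, with the brightest probe set per gene. The spike-in alternative uses 18 control probe sets. Members, lists and alternatives were chosen with earlier results of these data known. Named genes were all members, up to 4 called genes per list with groups apart and the largest difference, and the 2 nearest profiles per called member. List genes named as not passing, CREB1 and MEF2C were chosen after their values were seen. Of 201 list entries, 21 had no single-gene probe set and were not analysed here. The fit was tested on simulated data. The labels do not say whether same-numbered replicates were paired. Deviations of same-numbered arrays from their group mean correlated with r from 0.001 to 0.093. Differently numbered arrays were not compared, so pairing was not tested. Alternatives were the scaling, variance model, replicate block, threshold, dim features, choice of probe set and leaving out each array. Figures used matplotlib 3.10.9.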

Additional observations from a re-analysis of the deposited data

How the results depend on the processing

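The 5 falling members (CSRNP1, IER2, NR4A2, IER3, IER5) kept their direction under every alternative that measured them, and their calls under all but IER5 with spike-in centring (-0.20). The count of member genes lower was 5 throughout except 4 with spike-in centring and 3 when multi-transcript probe sets were left out, where NR4A2, IER3 and SRF had no probe set left. The count of member probe sets lower was 7 except 5 with spike-in centring and 6 at a threshold of 0.01. No member was called higher under any. Spike-in centring raised every difference by 0.18, which gave 1038 genes lower and 7766 higher, and the threshold of 0.01 gave 1520 and 1083. Leaving out 1 array gave 1861 to 2412 lower and 1512 to 1942 higher. With the replicate block the counts were 5 member genes, 7 member probe sets, 2316 genes lower and 1946 higher, and no member's call changed. Signs turned for members that did not pass: with spike-in centring NR4A1 (0.065), SRF (0.13 and, at 202400_s_at, 0.10) and NR4A3 at 207978_s_at (0.047). They also turned for SRF with quantile normalization once more (0.0038), for NR4A3 with the mean of probe sets (-0.0084) and the most variable one (-0.13), and for NR4A1 without multi-transcript probe sets (0.095, its change minus that of NR4A3 becoming 0.070). Without 1 array the ranges were -0.058 to 0.072 for NR4A3 at 209959_at, -0.24 to 0.021 at 207978_s_at, -0.041 to 0.15 at 216979_at and -0.091 to 0.0043 for SRF at 202401_s_at. The change of NR4A1 minus that of NR4A3 ran from -0.20 to -0.040 there. Of the CPEB3 probe sets, 1555250_a_at lost its call with spike-in centring (-0.071), the intensity trend, the replicate block and the threshold of 0.01 (-0.25 each) and without any 1 array (-0.30 to -0.19), and 239765_at with spike-in centring (-0.17). The causes were not tested. The number of arrays limits the precision, and signal over background was not available.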

Other observations

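Immediate early genes of the lists and the members, without SRF, made 42 measured genes, of which 34 fell and 8 did not pass (limma, Benjamini-Hochberg adjusted p under 0.05 over all genes), with a median difference of -0.84. Over all genes 12.5% were called lower. The lists were chosen with earlier results of these data known. By size of fall CSRNP1 was 11th of the 42, IER2 22nd, NR4A2 26th, IER3 27th, IER5 32nd, NR4A1 35th and NR4A3 41st. The 8 that did not pass, chosen after their values were seen, were NR4A1, NR4A3, PLK2 (-0.08), SGK1 (-0.07), TRIB1 (-0.06), PLK3 (-0.05), DUSP2 (-0.00) and EGR4 (0.03). Of these TRIB1 was bright in both groups (9.80 and 9.86), as was PLK2 (7.30 and 7.38), whereas EGR4 (4.76 and 4.74), SGK1 (4.83 and 4.91) and NR4A3 lay below the median gene. The fall across immediate early genes therefore did not extend to every bright member of these lists. Among the colorectal epithelial markers KRT20, a keratin of differentiated enterocytes, rose by 0.87 from a level below the median gene (4.26 to 5.13) and the epithelial transcription factor ELF3 fell by 1.03, while EPCAM (0.04) did not pass. The counts of these markers called lower and higher were near the shares of all genes.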
